A study of Mus musculus with 8 samples.

Results

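The comparison described here sets centrocytes against centroblasts in wild type mice. Its members are the 2 wild type libraries that the labels name CC and the 2 that they name CB, 4 of the 8 libraries of the series, read across all genes. All libraries came from spleens of C57BL/6 mice aged 8 to 10 weeks, taken at day 10 after immunization, and germinal centre B cells were isolated with magnetic beads against PNA, a lectin that binds their surface. The 4 wild type libraries are Smarca4+/+, and the 4 others, used here for the spread between replicates and for 1 test, are CB and CC of Smarca4+/- mice. CB and CC are read here as centroblast and centrocyte. The labels name neither the immunogen nor how CB was parted from CC, and they do not say whether the replicates were separate mice, so each p-value rests on how much libraries of a group differ, a difference that could be technical alone.

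Germinal centres are the sites in lymphoid follicles where B cells improve their antibodies. Centroblasts, in the dark zone, divide and mutate their antibody genes; centrocytes, in the light zone, test the altered receptor on antigen held by follicular dendritic cells and present peptides to helper T cells. Cells that receive help switch on Myc and return to the dark zone, and others leave as memory or plasma cells. Germinal centres also hold macrophages that engulf dying B cells, and the spleen as a whole holds T cells, red pulp macrophages and red cell precursors.

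The CB libraries held 20325562 and 24341805 counts and the CC libraries 526353 and 589802, with 16412 and 16809 genes detected in CB against 10854 and 10301 in CC. Levels are given in CPM (counts scaled to a common library total, here by the TMM method), where 3 counts over both libraries of a group stand for 0.0730 CPM in CB and 2.56 CPM in CC. Replicates correlated across genes (Pearson r of log2(CPM + 1)) at 0.980 in CB and 0.797 in CC. CC libraries also held more mitochondrial transcripts: the 10 tested genes of the mitochondrial genome summed to 14275 and 13162 CPM in CB and to 51163 and 38489 in CC.

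Of 12997 genes tested, 484 were higher in CC (3.72%) and 489 were lower (3.76%), 7.49% in all, by the edgeR quasi-likelihood test at an adjusted p under 0.05. The median log2 fold change (CC over CB) of all tested genes was -0.19, and 42.0% of genes had a positive value, so that values near -0.19 are the middle of the table and not 0. This balance of calls depended on the scaling. With libraries scaled to the summed level of 20 B lineage identity genes, 603 genes were higher and 245 lower, and with scaling to total counts 568 and 289. All 484 higher calls and 245 of the lower calls were shared between the first and the TMM fit, and no gene changed direction. Leaving out CB replicate 1 left 103 higher and 119 lower calls, and leaving out CB replicate 2 left 138 and 88.

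B lineage identity genes differed little between the fractions. The 20 genes of that list, such as the receptor chains Cd79a and Cd79b and the transcription factor Pax5, summed to 9286 and 8672 CPM in CB and to 7235 and 7597 CPM in CC. None was called higher and 1 was called lower, the transcription factor gene Spib, against a background of 3.72% and 3.76%. Their median log2 fold change was -0.23, next to -0.19 for all genes. Ms4a1 (-0.12, SE 0.18, adjusted p = 0.698 in edgeR) and Cd79a (-0.12, SE 0.17, adjusted p = 0.68) did not pass. Spib stood at 902 and 917 CPM in CB and at 529 and 492 CPM in CC (log2 fold change -0.83, SE 0.17, adjusted p = 0.016). On the scale of the identity list its value was -0.56 (adjusted p = 0.0781), and it was called in 1 of the 4 fits that left out a wild type library, the one without CC replicate 1.

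Markers of other cells were higher in both CC libraries. Of 38 tested macrophage and monocyte genes 27 were higher and 0 lower, of 34 T cell genes 25 and 0, and of 22 red cell genes 11 and 0. Their median log2 fold changes were 4.17, 6.46 and 4.97. Without CB replicate 1 the higher genes numbered 18, 9 and 3 (of 36, 34 and 16 tested) in the same order, and without CB replicate 2 they numbered 22, 10 and 3. Macrophage markers summed to 766 and 1151 CPM in CB and to 6881 and 6848 CPM in CC. T cell markers summed to 282 and 248 CPM in CB and to 1476 and 1669 in CC, and red cell markers to 74.0 and 70.9 CPM in CB and to 892 and 1023 in CC. In all 3 lists the groups did not overlap, which also held, in the other direction, for the B lineage sums given above. In bulk RNA, more cells of a type and more RNA per cell cannot be told apart.

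**Figure D1:**
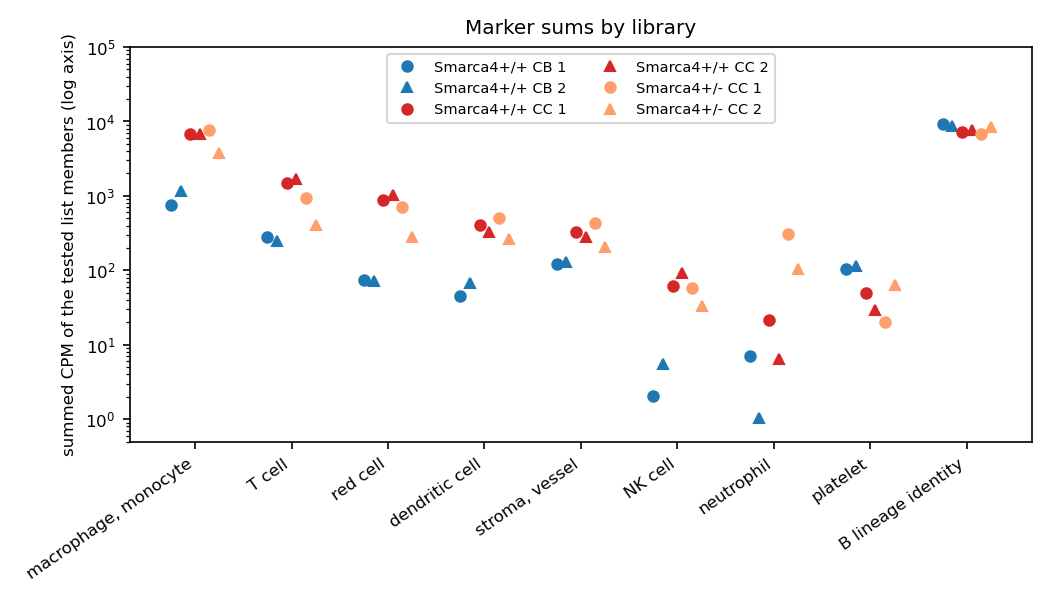
Summed level (CPM, log axis) of the tested markers of each cell type, 1 point per library, for the wild type CB and CC libraries and the Smarca4+/- CC libraries. The macrophage, T cell and red cell sums of both wild type CC libraries lie above those of both CB libraries, while the B lineage sums lie between 6801 and 9286 CPM in the 6 libraries.

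Single markers gave the same picture. The complement gene C1qa, made by tissue macrophages, stood at 4.27 and 12.1 CPM in CB and at 204 and 235 CPM in CC (log2 fold change 4.74, SE 0.55, adjusted p = 0.0012 in edgeR). Csf1r, the receptor for macrophage growth factor, stood at 8.79 and 56.7 CPM in CB and at 583 and 781 in CC. Cd3e, a chain of the T cell receptor complex, was at 0 in both CB libraries and at 50.03 and 98.1 CPM in CC, which is at least 1015-fold higher against the floor of 3 counts over both CB libraries. The alpha globin gene Hba-a1 stood at 0.660 and 1.49 CPM in CB and at 204 and 178 in CC. C1qa, Csf1r, Cd3e and Hba-a1 were called when each wild type library was left out in turn. T cell genes of both main classes were present, Cd8b1 (called) at 42.9 and 75.2 CPM in CC and Cd4 (adjusted p = 0.0578, not called) at 17.9 and 29.4.

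Other cell types were smaller or not called. Dendritic cell genes, of which 3 of 6 were higher, summed to 45.0 and 66.8 CPM in CB and to 402 and 330 in CC. The 3 were Sirpa, at 268 and 206 CPM in CC, Bst2, also on the interferon list, and Cd8a, also on the T cell list. Natural killer genes (1 of 5 higher) summed to 60.8 and 91.5 CPM in CC. The higher one, Tyrobp, also stands on the macrophage list. Stromal and vessel genes (3 of 15 higher) summed to 329 and 280 CPM in CC. Neutrophil genes (0 of 7 called in either direction) summed to 21.4 and 6.54 CPM in CC, and the 1 tested platelet gene was not called. Of 14 plasma cell genes 5 were higher, among them Pdia4 and Hsp90b1, chaperones of the endoplasmic reticulum, and Slpi and Cd28, which also stand on the macrophage and T cell lists. With CB replicate 1 or CB replicate 2 left out, 1 dendritic cell gene and 1 plasma cell gene were higher.

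The 484 higher calls were sorted by how much of each transcript the CB libraries already held. Of these, 68 stood on a list of another cell type (plasma cells, which are B lineage cells, not counted), 116 had a mean under 1 CPM in CB and 40 were at 0 in both CB libraries. At the other end, 213 had at least 5 CPM in both CB libraries, and 201 of those were on no list of another cell type. Of the 489 lower calls, 0 were on such a list. Removing all genes of the other cell lists before the fit, here with the plasma cell list too, left 416 higher and 475 lower calls, of which 410 and 475 were also called in the full fit.

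The 2 CB libraries differed from each other in macrophage RNA, and their ratio gave a second gauge, taken within CB, of macrophage RNA alone. Among the 33 macrophage genes with at least 20 counts in CB, the median ratio of CB replicate 2 to replicate 1 was 3.35 and 24 had a ratio over 2. The same median was 0.948 for the 20 B lineage genes, of which 0 had a ratio over 2, and 0.802 for 18 T cell genes and 0.952 for 10 red cell genes. This ratio therefore cannot part T cell or red cell RNA from B cell RNA. Over all 8848 tested genes with at least 5 CPM in both CB libraries, 0.429% had a ratio over 2. Of the 213 higher in CC at that level, 14 did (6.57%), and of the 489 lower in CC 1 did (0.204%). The limits of 5 CPM and 2-fold were chosen after the values were seen.

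Of those 14 genes, 9 were on the macrophage list (Vcam1, Csf1r, Slc40a1, Trf, Axl, Hmox1, Mrc1, Ctsd and Cd68) and 1, Sirpa, on the dendritic list. The other 4 were Sdc3, Lrp1, Cfp and Myo10. Lrp1, the scavenger receptor that takes up apoptotic cells and lipoproteins, stood at 15.04 and 69.3 CPM in CB and at 672 and 667 CPM in CC (log2 fold change 3.99, SE 0.59, adjusted p = 0.00328). Sdc3, a cell surface proteoglycan, stood at 7.82 and 36.7 CPM in CB and at 325 and 373 in CC. Lrp1 and Sdc3 thus varied between the CB libraries 4.61-fold and 4.69-fold, like the macrophage markers and unlike the B lineage list. Whether macrophage RNA supplied their rise was not tested.

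**Figure D2:**
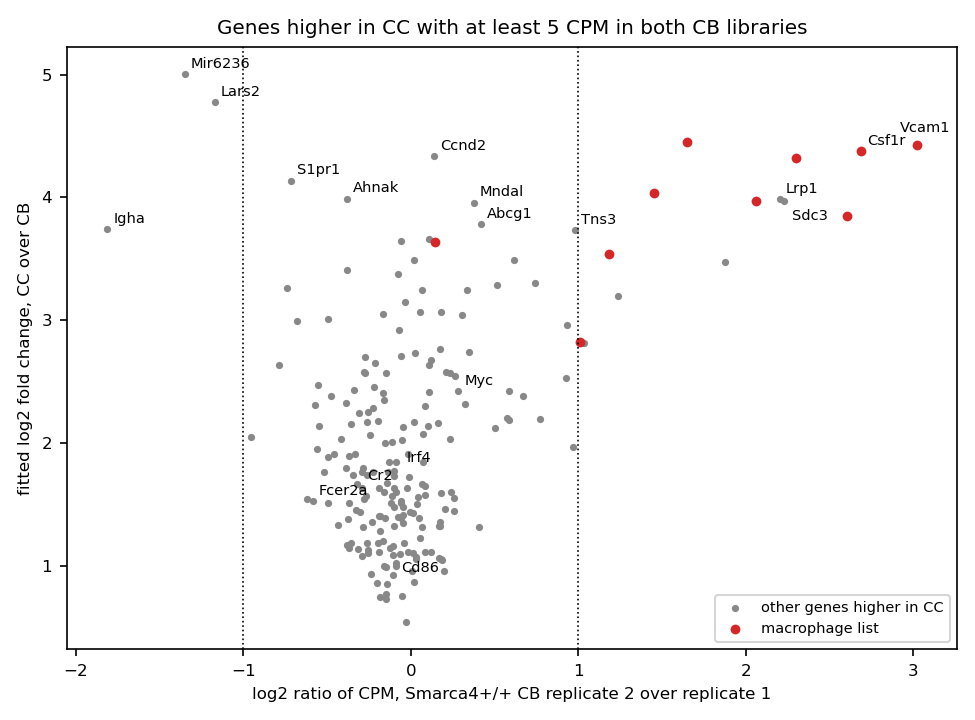
Fitted log2 fold change of CC over CB against the log2 ratio of wild type CB replicate 2 to replicate 1, 1 point for each of the 213 genes higher in CC with at least 5 CPM in both CB libraries; dotted lines mark a ratio of 2 and of 0.5. Red points are genes of the macrophage list, 9 of which lie right of the upper line beside Lrp1 and Sdc3, while Myc, Cr2, Irf4 and Cd86 lie near the middle. A place near the middle does not part B cell genes from T cell or red cell genes.

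Among genes with at least 5 CPM in both CB libraries and on no other cell list, without immunoglobulin segments, predicted genes, clones and histones, the leading 2 of the 12 largest rises rested on 1 library. Mir6236 stood at 27.1 and 10.6 CPM in CB and at 1201 and 13.1 in CC, and Lars2 at 203 and 90.1 CPM in CB and at 7832 and 216 in CC, so that CC replicate 1 alone was high. Without CC replicate 1 the log2 fold change of Mir6236 was -0.54 (adjusted p = 0.771 in edgeR) and that of Lars2 0.55 (adjusted p = 0.66). Igha, the constant region of IgA, stood at 80.7 and 23.0 CPM in CB and at 683 and 705 in CC, and at 18.7 and 35.6 in the Smarca4+/- CC libraries. Both wild type CC libraries were above both CB libraries, although the CB libraries themselves differed by more than 2-fold.

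The other 7 of these rises were Ccnd2, S1pr1, Ahnak, Mndal, Abcg1, Tns3 and Ifi203. Tns3 stood at 6.81 and 13.4 CPM in CB, a ratio of 1.97, just under the 2-fold limit used above. Whether RNA of other cells supplied part of these rises was not tested. Ccnd2, cyclin D2 of cell cycle entry, stood at 9.45 and 10.4 CPM in CB and at 136 and 265 in CC (log2 fold change 4.34, SE 0.46, adjusted p = 0.00102 in edgeR). Mndal, an interferon-inducible DNA binding protein gene, stood at 6.30 and 8.17 CPM in CB and at 113 in both CC libraries (3.96, SE 0.35, adjusted p = 0.000765). Ahnak, a large scaffold protein of lymphocytes and many other cells, stood at 25.7 and 19.7 CPM in CB and at 315 and 405 in CC. Abcg1, a cholesterol exporter, stood at 8.03 and 10.7 CPM in CB and at 71.5 and 186 in CC. All of these except Ifi203 were called in each fit without 1 wild type library. Ifi203 lost its call without CB replicate 1 (3.64, adjusted p = 0.135) and without CB replicate 2 (3.77, adjusted p = 0.125).

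Genes whose expression is largely limited to B cells and follicular dendritic cells moved both ways. Of 35 such genes 5 were higher, 4 lower and 26 were not called. Without CB replicate 1 there were 2 higher and 1 lower, and without CB replicate 2 there was 1 each way. Cr2, the complement receptor CD21, stood at 239 and 191 CPM in CB and at 718 and 642 in CC (log2 fold change 1.66, SE 0.25, adjusted p = 0.00328 in edgeR; chromosome 1, 195136811 to 195176716 of mm10). The low affinity IgE receptor gene Fcer2a stood at 77.1 and 51.3 CPM in CB and at 173 and 196 in CC (1.53, SE 0.31, adjusted p = 0.0144). Ighd, the IgD constant region of naive B cells, stood at 72.0 and 69.9 CPM in CB and at 186 and 209 in CC (1.48, SE 0.28, adjusted p = 0.0116). In each of the 3 the CC libraries were above both CB libraries. All 3 also stand on the list of naive follicular and marginal zone B cell genes given below. The part of naive B cells in these rises was not tested. Follicular dendritic cells also express Cr2; the stromal list that holds their markers summed to 123 and 130 CPM in CB and to 329 and 280 in CC, and its part was not tested.

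Cxcr5, the receptor that guides B cells into the follicle, stood at 211 and 184 CPM in CB and at 348 and 369 in CC (log2 fold change 0.86, SE 0.19, adjusted p = 0.0193 in edgeR), and helper T cells of the follicle express it too. The fifth higher gene, Fcrl5, stood at 1.52 and 0 CPM in CB and at 10.7 and 65.4 in CC. Fcrl5 was not called without CB replicate 1 (adjusted p = 0.0531), CB replicate 2 (adjusted p = 0.246) or CC replicate 2 (adjusted p = 0.28). Cr2 was called whichever wild type library was left out. Fcer2a lost its call without CB replicate 2 (1.32, adjusted p = 0.133). Ighd lost it without CB replicate 1 (1.53, adjusted p = 0.097) and without CB replicate 2 (1.51, adjusted p = 0.104).

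The lower genes of the B restricted list included Gcsam, Pou2af1 and Spib. Gcsam, a signalling adaptor of germinal centre B cells, fell from 210 and 252 CPM in CB to 39.3 and 22.9 in CC (log2 fold change -2.90, SE 0.43, adjusted p = 0.00328 in edgeR). Pou2af1, a coactivator needed to form germinal centres, fell from 1441 and 1493 CPM to 770 and 675 (-1.02, SE 0.21, adjusted p = 0.0157). Gcsam was called without each library in turn and under each scaling.

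**Figure D3:**
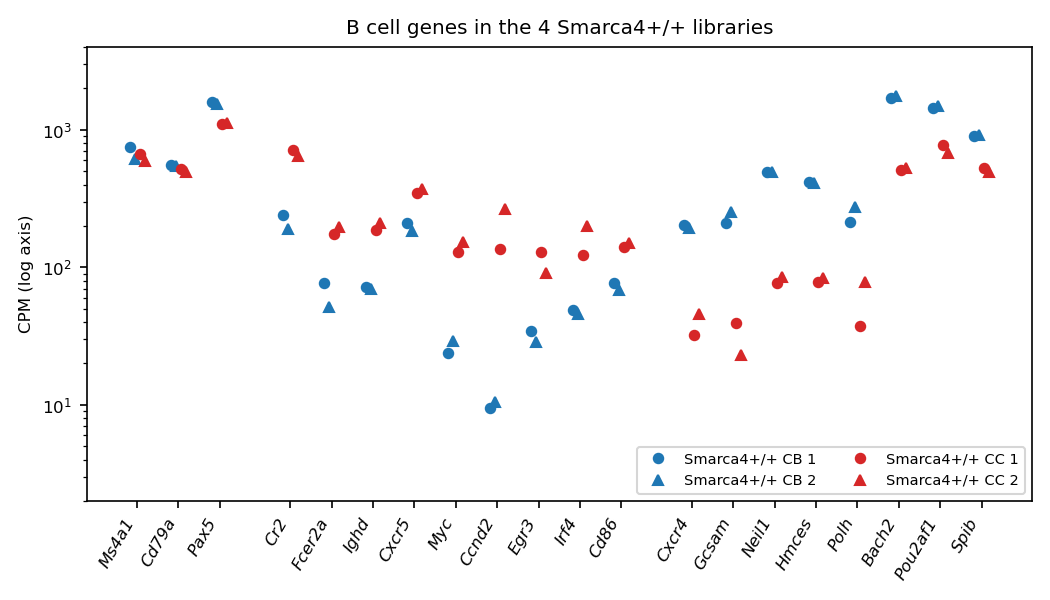
Level (CPM, log axis) of named B cell genes in the 4 wild type libraries, 1 point per library, circles for replicate 1 and triangles for replicate 2. Cr2, Fcer2a, Ighd and Myc are higher in both CC libraries and Gcsam, Neil1, Hmces and Cxcr4 lower in both, with no overlap. All of these passed the test, so the gap between their groups is no added support.

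Light zone genes were higher in part. Of 37 tested, 8 were higher (Ccnd2, Rilpl2, Myc, Egr3, Irf4, Nr4a1, Fcer2a and Cd86), 0 were lower and 29 were not called, and the list median was 0.83. Without CB replicate 1 there were 3 higher, and without CB replicate 2 there were 2. Myc, the growth regulator of selected cells, rose from 23.8 and 28.9 CPM in CB to 129 and 154 in CC (log2 fold change 2.42, SE 0.29, adjusted p = 0.00125 in edgeR) and was called in each fit without 1 wild type library. Egr3 (1.80, SE 0.34, adjusted p = 0.0117), an early gene of B cell receptor signalling, stood at 34.7 and 28.5 CPM in CB and at 129 and 91.5 in CC. Irf4 (1.77, SE 0.33, adjusted p = 0.0109) and the costimulatory ligand gene Cd86 (1.00, SE 0.24, adjusted p = 0.032) were also higher. Without CB replicate 2, Egr3 stood at 1.72 (adjusted p = 0.12), Irf4 at 1.78 (adjusted p = 0.0991) and Cd86 at 0.98 (adjusted p = 0.235). Each of the 3 also lost its call without CB replicate 1, and Irf4 and Cd86 without CC replicate 2.

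The light zone markers Cd83 (154 and 131 CPM in CB, 179 and 257 in CC) and Cd40 (26.7 and 28.2, 32.2 and 45.8) and the feedback inhibitor Nfkbia (44.1 and 50.8, 60.8 and 141) did not pass. Cd83 and Nfkbia passed on the identity list scale, where 11 of the 37 genes were higher. Antigen presentation genes were near the middle of the table: of 13 tested, Ctss was higher and H2-DMb1 lower. The H2-DMb1 call was lost in each of the 4 fits that left out a wild type library and under each of the 3 other scalings, and the Ctss call was lost when CB replicate 1 or CB replicate 2 was left out. On the identity list scale 5 were higher and 0 lower. 

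Genes of naive and memory B cells were among the higher calls, and some of these genes are also known in T cells. Of 22 naive follicular and marginal zone genes 12 were higher and 0 lower, with a median of 1.502. Of 22 memory genes 10 were higher and 3 lower, with a median of 2.35. With genes of the other cell lists removed before the fit, 12 of 21 naive and 10 of 22 memory genes were higher. Without CB replicate 1 there were 4 higher naive and 4 higher memory genes, and without CB replicate 2 there were 3 and 5. S1pr1, the receptor by which lymphocytes leave tissue, stood at 10.1 and 6.16 CPM in CB and at 113 and 173 in CC (log2 fold change 4.14, SE 0.48, adjusted p = 0.0012 in edgeR). The survival gene Bcl2 stood at 1.07 and 1.68 CPM in CB and at 75.1 and 39.2 in CC. S1pr1 and Bcl2 are both known in T cells, whose markers summed to 1476 and 1669 CPM in CC; their share was not tested. S1pr1 was called without each library in turn, and Bcl2 was not without CB replicate 1 (5.10, adjusted p = 0.0613). The lower memory genes included Bach2, a repressor that germinal centre cells also express, which fell from 1699 and 1761 CPM to 509 and 530.

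The Smarca4+/- CC libraries gave a further description of these genes, since replicate 1 held more other cell RNA than replicate 2. Between them the median ratio of replicate 1 to replicate 2 was 2.40 over 31 macrophage genes, 3.53 over 17 T cell genes and 3.74 over 9 red cell genes, and 0.834 over the 20 B lineage genes. Replicate 2 also held more mitotic RNA (median ratio 0.637 over 52 genes), so a ratio over 1 does not by itself tell B cell from other RNA. Of the 28 light zone, memory, naive or B restricted genes higher in wild type CC, 25 had at least 20 counts there, and 7 of those had a ratio over 2, 13 a ratio of 1 to 2 and 5 a ratio under 1. Those under 1 were Ly6d, Cxcr5, Myc, Fcer2a and Egr3. Those over 2 included Plac8 (no count in replicate 2), Klf2, Ccr6, Satb1, S1pr1 and Bcl2.

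The ratio was 0.751 for Myc, 0.619 for Fcer2a and 0.563 for Egr3, below the B lineage median. It was 1.71 for Cr2, 1.68 for Ighd and 1.89 for Ccnd2, between the B lineage and the T cell medians. It was 2.65 for S1pr1 and 3.38 for Klf2, within the range of the other cell lists. Among the largest rises named above, the ratio was 2.53 for Ahnak, 2.72 for Abcg1, 2.44 for Tns3, 8.45 for Ifi203 and 0.956 for Mndal. These are ratios of 2 libraries, and no test was made of them.

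Of all the lists, mitotic genes held the most lower calls by number. By share, 63.6% of mitotic genes and 66.7% of dark zone genes were lower, against 3.76% of all tested genes. Of 55 mitotic genes tested 35 were lower (15 by limma-voom and 40 by DESeq2) and 0 higher. All 55 had a negative log2 fold change, and the median was -2.10. Summed, they stood at 10981 and 12327 CPM in CB and at 3166 and 3305 in CC. Mki67, the proliferation antigen, fell from 3770 and 4102 CPM to 1129 and 1027 (log2 fold change -1.87, SE 0.19, adjusted p = 0.000853 in edgeR). Foxm1, the transcription factor of G2 and M phase genes, fell from 181 and 220 CPM to 14.3 and 29.4 (-3.18, SE 0.35, adjusted p = 0.00107). Plk1, a mitotic kinase, fell from 126 and 163 CPM to 17.9 and 39.2. Mki67, Foxm1 and Plk1 were called without each library in turn, but Ccnb1, cyclin B1 (63.3 and 79.7 CPM in CB, 0 and 16.3 in CC), was not without CC replicate 1 (-2.14, adjusted p = 0.0531), CB replicate 1 (-3.21, adjusted p = 0.097) or CB replicate 2 (-2.85, adjusted p = 0.15). On the identity list scale 31 of the 55 were lower, without CB replicate 1 23 were, and without CB replicate 2 21 were.

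Promoters of the mitotic list are shown because 2 short motifs recur in them: the CHR element (TTTGAA), bound by the DREAM and MuvB complexes, and the CCAAT box (CCAAT), bound by NF-Y. Both strands were searched in 300-base RefSeq windows on GRCm38.p6, from 250 bases before to 50 after each start. The 150 bases before the start of 4 genes that were lower in CC and held both motifs follow, 5′ to 3′ on the gene's strand, with each motif in capitals in either orientation. The windows are chr15:102296143-102296292 (plus strand) for Espl1, chr4:118437344-118437493 (minus) for Cdc20, chr7:80294326-80294475 (plus) for Prc1 and chr7:135716380-135716529 (minus) for Mki67.
Espl1: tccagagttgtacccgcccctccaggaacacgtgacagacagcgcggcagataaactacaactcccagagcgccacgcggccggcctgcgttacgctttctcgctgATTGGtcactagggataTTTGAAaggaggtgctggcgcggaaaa
Cdc20: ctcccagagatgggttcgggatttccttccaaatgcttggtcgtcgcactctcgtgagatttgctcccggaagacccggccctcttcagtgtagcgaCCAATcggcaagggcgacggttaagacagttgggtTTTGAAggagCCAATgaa
Prc1: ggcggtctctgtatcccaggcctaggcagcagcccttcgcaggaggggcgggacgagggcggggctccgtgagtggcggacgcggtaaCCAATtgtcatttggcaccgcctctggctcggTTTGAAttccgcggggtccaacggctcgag
Mki67: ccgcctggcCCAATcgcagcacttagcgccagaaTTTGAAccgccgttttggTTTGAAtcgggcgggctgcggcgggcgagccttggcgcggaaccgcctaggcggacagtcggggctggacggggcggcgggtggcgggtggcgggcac

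Those 4 genes were chosen after their values were seen. Espl1, the separase that parts sister chromatids, fell from 157 and 172 CPM to 28.6 and 19.6, and Cdc20, an activator of the anaphase promoting complex, from 120 and 158 to 39.3 and 13.1. Prc1, a spindle midzone protein, fell from 169 and 184 CPM to 46.5 and 36.0. CHR was found in 33 of 50 promoters of the mitotic list (66.0%, from 46 of 55 genes matched). It was in 17.9% of the 32851 promoters searched and in 12.4% of promoters of genes tested. CHR and CCAAT together were in 56.0%, 6.95% and 5.07% of these sets, in the same order. CHR was in 20 of 31 promoters of mitotic genes that were lower in CC (64.5%) and in 13 of 19 of those that were not called (68.4%). A match is a description of letters in a window and no evidence of binding.

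DNA replication genes moved less than mitotic genes. Of 41 tested 9 were lower (0 by limma-voom and 17 by DESeq2) and 0 higher, with a median of -0.73. On the identity list scale 1 was lower, without CB replicate 1 also 1, and without CB replicate 2 none of 41. Rrm2, of nucleotide synthesis, fell from 190 and 208 CPM to 50.03 and 81.7 (log2 fold change -1.59, SE 0.27, adjusted p = 0.00619 in edgeR), and without CB replicate 2 it was not called (-1.47, adjusted p = 0.0583). E2F motifs (TTTGGCGC, TTTCCCGC, TTTCGCGC and TTTGCCGC, both strands, overlapping only each other) were found in 34.1% of 41 promoters of this list. They were in 4.04% of promoters of genes tested and in 2.26% of the promoters searched. Replication-dependent histone genes, made in S phase, fell in 32 of 58 (median -1.56) and in 25 on the identity list scale, but in 22 without CB replicate 1, 12 without CB replicate 2 and 5 by limma-voom. Their near-identical copies may share reads, so single histone genes are uncertain. No gene of these lists was higher in CC.

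Of the 489 lower genes, 413 stood on none of the 3 cycle lists (mitosis, replication and histones). The lists hold chosen members only, so absence from them does not place a gene outside the cell cycle. With histones, immunoglobulin segments, predicted genes and clones left out, the 12 largest falls with a mean of at least 5 CPM in CC held 5 mitotic list genes (Kif2c, Bub1, Foxm1, Nek2 and Ccnb1). The other 7, on none of these lists, were Pafah1b3, Kif14, Nlrx1, Cdc14b, Msh3, Ckap2l and Ankle1. Kif14 and Ankle1 each stood at 10.7 CPM in CC replicate 1 and at 0 in CC replicate 2. In Smarca4+/- libraries Ankle1 stood at 28.5 and 42.9 CPM in CB and at 37.4 and 40.3 in CC. Pafah1b3, a subunit of a platelet-activating factor hydrolase, fell from 82.9 and 91.8 CPM to 3.57 and 6.54 (log2 fold change -4.09, SE 0.45, adjusted p = 0.00107 in edgeR), which in CC rested on 2 and 4 counts. Msh3, a mismatch repair protein, fell from 155 and 144 CPM to 17.9 and 6.54 (-3.64, SE 0.46, adjusted p = 0.00165). The mitochondrial protein gene Nlrx1 fell from 76.1 and 82.4 CPM to 3.57 and 6.54. Pafah1b3, Msh3 and Nlrx1 were called without each library in turn and under each scaling.

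Dark zone and germinal centre genes fell together with these. Of 12 dark zone genes 8 were lower (5 by limma-voom and 8 of 13 by DESeq2) and 0 higher, with a median of -1.43. Of 19 germinal centre B cell genes 8 were lower (5 by limma-voom and 8 by DESeq2) and 0 higher, with a median of -0.85. On the identity list scale 5 of each list were lower, without CB replicate 1 there were 4 and 3, and without CB replicate 2 there were 3 and 4. Cxcr4, which holds cells in the dark zone, stood at 202 and 192 CPM in CB and at 32.2 and 45.8 in CC (log2 fold change -2.33, SE 0.30, adjusted p = 0.00187 in edgeR). Foxo1 stood at 417 and 395 CPM in CB and at 191 and 227 in CC (-0.96, SE 0.19, adjusted p = 0.0149), but not past the test on the identity list scale (-0.68, adjusted p = 0.0611) or without CB replicate 1 (-0.89, adjusted p = 0.132), CB replicate 2 (-0.94, adjusted p = 0.111) or CC replicate 1 (-0.85, adjusted p = 0.0506). Bcl6, the regulator of the germinal centre programme, stood at 646 and 563 CPM in CB and at 306 and 472 in CC and did not pass (-0.63, SE 0.22, adjusted p = 0.104).

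Genes of somatic hypermutation and repair of its lesions fell in 6 of 30 (1 by limma-voom and 9 by DESeq2), with 0 higher and a median of -0.72. Without CB replicate 1 there were 4 lower, without CB replicate 2 there were 3, and without CC replicate 1 there were 9. Neil1, a glycosylase of oxidised bases, fell from 494 and 493 CPM to 76.8 and 85.0 (log2 fold change -2.61, SE 0.24, adjusted p = 0.000765 in edgeR). Hmces, which shields abasic sites in single strands, fell from 421 and 413 CPM to 78.6 and 83.4 (-2.36, SE 0.23, adjusted p = 0.000765). The replicates of Neil1 and Hmces differed little within each fraction, and both were called without each library in turn and under each scaling. The translesion polymerase genes Polh (-2.07, SE 0.38, adjusted p = 0.00955) and Polq (-2.75, SE 0.50, adjusted p = 0.00939) fell as well. In Smarca4+/- libraries Polq stood at 84.5 and 64.4 CPM in CB and at 77.4 and 91.3 in CC. Polh stood there at 306 and 266 CPM in CB and at 37.4 and 83.0 in CC. The wild type CC values rest on 21 and 48 counts for Polh and on 10 and 2 for Polq. Neither was called without CB replicate 2 (-1.82, adjusted p = 0.0772, and -2.74, adjusted p = 0.0546), nor Polq without CB replicate 1 (-2.66, adjusted p = 0.0614).

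**Figure D4:**
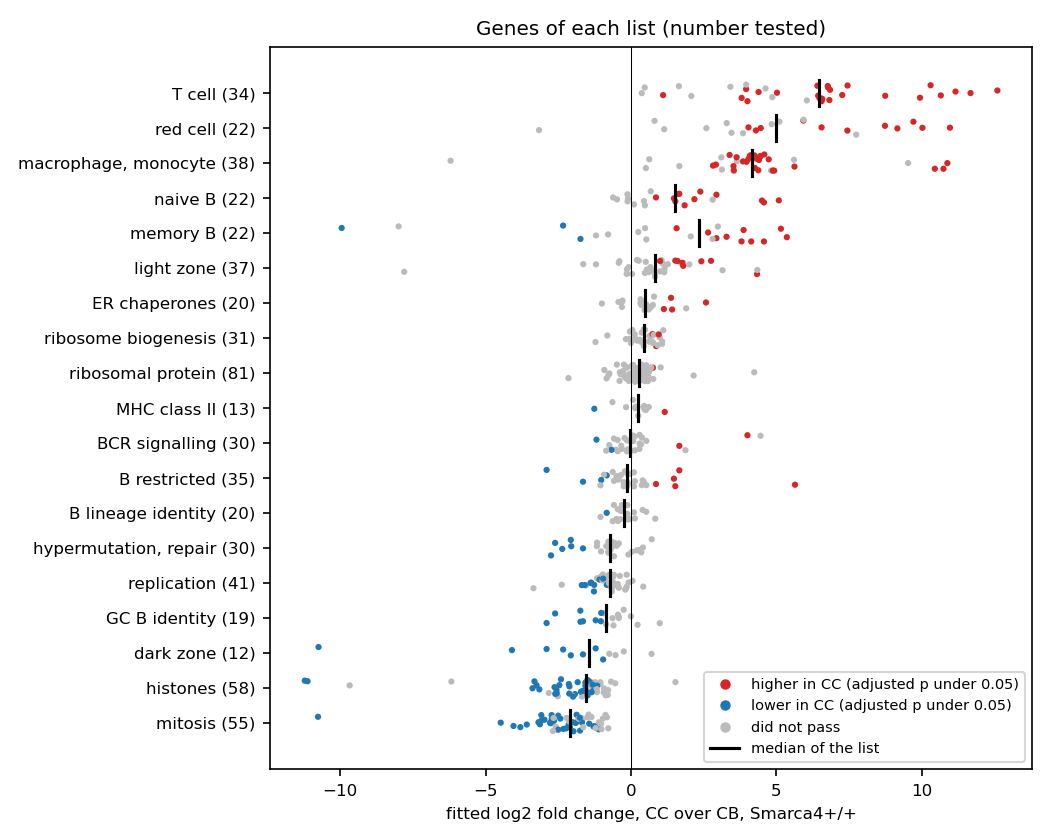
Fitted log2 fold change of CC over CB for each tested gene of the lists, 1 point per gene, coloured by the edgeR call, with a black bar at the list median; the number tested is in brackets and the vertical position within a list has no meaning. All 55 mitotic genes and 57 of 58 histone genes lie below 0, and T cell, red cell and macrophage medians lie at 6.46, 4.97 and 4.17; the points farthest out are mostly genes at or near 0 counts in one fraction, whose fitted size depends on the prior count.

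**Figure D5:**
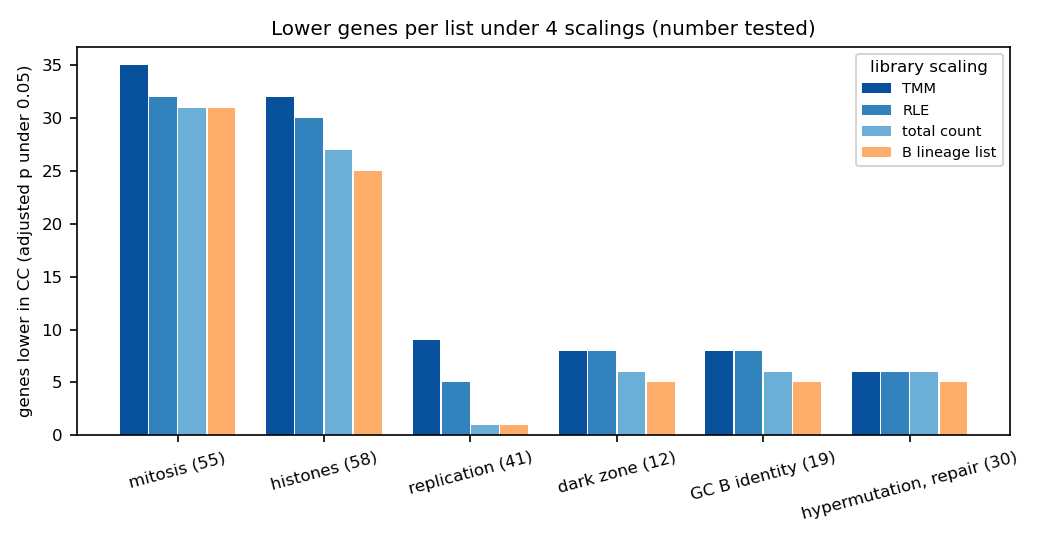
Number of genes lower in CC (adjusted p under 0.05 in edgeR) in 6 lists under 4 scalings of the libraries, 1 bar per scaling, with the number tested in brackets. From TMM to the B lineage list the bars go from 35 to 31 for mitotic genes, from 32 to 25 for histones and from 9 to 1 for replication genes.

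Other groups had few called members. Of 31 ribosome biogenesis genes 3 were higher (Utp20, Mybbp1a and Nolc1), and on the identity list scale 8 were. Of 20 endoplasmic reticulum stress genes 4 were, and of 19 interferon genes 2 were. With CB replicate 1 or CB replicate 2 left out, the higher genes of these 3 lists numbered 0, 1 and 0. Of 23 sterol genes 0 were called in either direction, with a median of 0.000141, and of 20 glycolysis genes 1 was higher and 1 lower. Of 30 receptor signalling genes, Cr2 and Cd5 were higher, and the lower genes included Dok3. Cd5 also stands on the T cell list. It was at 1.42 and 1.68 CPM in CB and at 10.7 and 39.2 in CC. Its ratio of replicate 1 to replicate 2 in Smarca4+/- CC was 9.01. With genes of the other cell lists removed, 1 of 29 receptor signalling genes was higher.

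The wild type change was also set against the same change in Smarca4+/- cells by a test of the difference. The edgeR interaction test called 0 of 12997 genes, with 1195 at an unadjusted p under 0.05, limma-voom called 0 and DESeq2 called 259. Mitotic genes summed to 14203 and 11654 CPM in Smarca4+/- CB and to 5122 and 7661 in Smarca4+/- CC. In wild type they summed to 10981 and 12327 CPM in CB and to 3166 and 3305 in CC. No test was made of these sums.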

How the data were processed

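Ribosomal RNA depleted total RNA libraries were made with a KAPA RNA HyperPrep kit, per the labels' protocols. The authors deposited 1 table of raw read counts per gene with no normalization. Per the submitters' processing notes, FastQC, STAR, featureCounts of Subread, R 4.2.1 and the mm10 build were used; the strandedness and multi-mapping options were not given in the sources used here. A column of gene lengths in bases, as deposited, was not used. Of 55421 gene identifiers 54587 matched GENCODE M21 with their version and 55154 had a symbol.

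Counts were tested in R 4.3.3 with edgeR 4.0.16: filterByExpr (minimum count 10, minimum total 15), TMM, 1 mean per group over all 8 libraries (4 residual degrees of freedom), a quasi-likelihood test and Benjamini-Hochberg adjustment over 12997 genes at 0.05. Each adjusted p comes from it unless another tool is named. SE was computed as the fold change over the root of F. The fit was tested on simulated data in which chosen genes changed in wild type CC alone. All groups otherwise shared the same mean for each gene, so the simulation could not test shifts in cell make-up between CB and CC. Floors are 3 counts and cover counting error only. Reads were not marked by molecule.

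The lists and members were chosen with earlier results of these data known. Genes named were the 12 largest rises (at least 5 CPM in both CB libraries, on no list of another cell type) and the 12 largest falls (mean of at least 5 CPM in CC), both without immunoglobulin segments, predicted genes, clones and histones, up to 4 called members of each list averaging at least 5 CPM, plus a fixed set of markers. Other list members named in the text were chosen after their values were seen. Ratios between replicates used genes with at least 20 counts in the pair. Alternatives were other scalings, DESeq2 1.42.0, limma-voom (limma 3.58.1), other filters, gene sets left out, wild type libraries alone, thinned CB libraries, a replicate block and each wild type library left out. Some genes are not reported here.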

Additional observations from a re-analysis of the deposited data

Results flagged for a closer look

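The class II chaperone gene H2-DMb1 was lower in both wild type CC libraries (37.5 and 55.6 CPM, against 118 and 106 in CB) and higher in both Smarca4+/- CC libraries (142 and 115, against 67.1 and 108). The difference of the log2 changes was -1.81. H2-DMb1 was flagged from the 118 named genes called because CC and CB libraries separated in opposite directions in the 2 genotypes. That separation is thus the rule of selection and no added support. In Smarca4+/- the nearest values were 115 CPM in CC and 108 in CB, and the wild type CC values rest on 21 and 34 counts. The edgeR interaction test did not pass (adjusted p = 0.419). The wild type call itself (adjusted p = 0.0423) was lost in each of the 4 fits that left out a wild type library (adjusted p = 0.0534 to 0.232) and under each of the 3 other scalings (adjusted p = 0.0668 to 0.115).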

How the results depend on the processing

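Genes higher in CC numbered 484 by the reported edgeR fit, 1196 by DESeq2, 802 with no low count filter and 168 with the 4 wild type libraries alone. Genes lower in CC numbered 489, and 289 with total count scaling, 245 with scaling to the B lineage identity list, 851 by DESeq2, 169 by limma-voom, 849 with no low count filter, 124 with the 4 wild type libraries alone and 279 with the CB libraries thinned to 558078 counts. Of 973 calls none was called the opposite way under any of these. Calls on the difference between genotypes numbered 0, and 259 by DESeq2, 46 with no low count filter and 2 with thinned CB libraries. The cause of these moves was not tested.

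Leaving out each wild type library in turn gave 103 to 517 higher and 88 to 614 lower calls, and 0 on the difference between genotypes; the lone library is then assumed to vary like the other groups. The fewest calls came without either CB library. Mir6236 reversed without CC replicate 1 (-0.54) and stood at 5.98 without CC replicate 2. Of 118 named genes called, 40 were called in all 4 of these fits and under all 3 other scalings, 21 higher and 19 lower.

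With a replicate block within genotype there were 390 higher and 576 lower calls and 13 on the difference between genotypes. Deviations of same-numbered CB and CC libraries correlated at 0.0676 in Smarca4+/+ and 0.0757 in Smarca4+/- over 4727 genes, so the numbers were not shown to pair the samples.

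Depth limits the CC side. A gene at 0 in both CC libraries could still stand at 2.56 CPM, 57 of the lower calls were at 0 there, and low CC levels rest on a few counts.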
